A study of Mus musculus with 96 samples.

Results

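The vascular endothelium of the mouse heart was followed from the unoperated state to the third day after myocardial infarction. The comparison was made between the 4 EC Day 3 and the 4 EC Day 0 total RNA libraries, 8 of the 96 libraries listed for the series, and it covered all genes that passed a filter on low counts. EC Day 3 held endothelial cells taken from male C57Bl/6J mice of 12 to 14 weeks in which the left anterior descending coronary artery had been ligated for good. EC Day 0 held endothelial cells of male mice of the same strain that had no operation and whose age was not stated separately, so that surgery and infarction cannot be told apart at Day 3. Each library came from RNA pooled over 2 or 3 mice. The hearts were digested with collagenase, the cardiomyocytes (CM) were spun out, CD45-positive hematopoietic cells (HC) were taken out with beads, and the cells that then bound beads against CD144 (VE-cadherin) were kept as endothelial cells (EC). Fibroblasts (FB) were obtained by plating. The beads select for one surface protein, so other cells of the digest can be carried along. Libraries were made per cell type, in batches whose number is not given in the sources used here, with a kit for ribosome-depleted total RNA. The study calls the 4 libraries of a group biological replicates in one place and technical replicates in others. It describes them as separate pools of RNA, so the p-values measure the spread between pools.

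Endothelial cells line every vessel of the heart. In the healthy adult heart they rarely divide, and the capillary cells take up fatty acids from the blood and pass them on to the cardiomyocytes. After an infarction the vessels at the border of the scar sprout anew: endothelial cells loosen their matrix, migrate behind tip cells, divide, and take up an adhesive surface on which leukocytes can roll and arrest. Genes of these programmes were described in turn through lists of genes with a known role. Levels are given as CPM (read counts scaled to a common library total), and a change as the log2 fold change of EC Day 3 over EC Day 0 with its standard error (SE). A gene was called higher or lower where edgeR's quasi-likelihood test gave a Benjamini-Hochberg adjusted p under 0.05.

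The label was borne out by the markers in both groups. Pecam1 (CD31, an adhesion molecule of the endothelial surface) had 774, 669, 798 and 708 CPM in the EC Day 3 libraries, against 571, 514, 634 and 615 CPM in the EC Day 0 libraries. Cdh5, which encodes the CD144 used for isolation, had 1133, 880.0, 1242 and 950.1 CPM in the EC Day 3 libraries, against 772, 701, 917 and 941 CPM in the EC Day 0 libraries. Summed over the 4 EC markers of the study (Flt1, Kdr, Pecam1 and Cdh5) and put on one scale with the other cell types, the level was 2049 CPM in EC Day 3, against 268 CPM in CM, 124 CPM in FB and 63.4 CPM in HC of that day. At Day 0 it was 2354 CPM in EC, against 267 CPM in CM, 188 CPM in FB and 320 CPM in HC. The EC libraries therefore held by far the most endothelial RNA of the 4 isolates at both days, and Pecam1 did not overlap between the days.

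The 8 libraries held 21405295 to 28642346 estimated reads, and ribosomal RNA genes took 13.9 to 27.6% of them. EC Day 0 replicates 1 and 2 stood apart from the others. Over 836 genes that are rare in EC and lie opposite an abundant gene, the summed level was 17430 and 17910 CPM in these replicates, against 397.5 and 379.4 CPM in EC Day 0 replicates 3 and 4 and 319 to 370 CPM in EC Day 3, so these 2 libraries carried reads of the opposite strand at 44.9 and 46.1 times the level of their group. The total counts and those of some lists are therefore given below also without EC Day 0 replicates 1 and 2. Lists given only with all libraries can change in that setting. Higher calls went from 24 to 18 for ribosome biogenesis, from 17 to 14 for cholesterol synthesis, from 13 to 10 for glycolysis and lactate, and from 26 to 31 for ribosomal proteins. Whether counting used strand is not given in the sources used here, and a gene that shares its position with a gene on the other strand can hold reads of both. Among the genes named below this holds for Adamts4, Angpt2, Atf3, Bmp4, Ccl2, Ccnd1, Ccnd2, Cdc42, Cdh5, Cdkn1a, Cdkn1c, Col4a1, Cxcl10, Dll4, Eng, Esm1, Fn1, Fosl1, H19, Hif1a, Hspa1a, Icam1, Idi1, Igf1, Impdh2, Inhba, Irf7, Itga1, Itgav, Jam3, Jun, Lama3, Loxl2, Mcam, Mki67, Nid1, Notch4, Pdgfra, Pfkm, Plvap, Prox1, Psat1, Rac1, Selp, Slc2a1, Sox17, Tcf21, Thbs1, Timp1, Tnc, Vcam1, Vcan and mt-Co1.

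The infarcted hearts' endothelial cells differed widely from those of unoperated hearts. Of 18151 genes tested, 4209 (23.2%) were higher and 4043 (22.3%) were lower in EC Day 3, together 8252 (45.5%). At least 2-fold changes made up 1534 of the higher and 1510 of the lower calls, and 6042 of the called genes had no overlap between the 4 EC Day 3 and the 4 EC Day 0 libraries. Without EC Day 0 replicates 1 and 2, 3126 genes were called higher and 2478 lower, and 2936 of the higher and 2165 of the lower calls above were made again. On the log2(TPM + 1) scale (TPM, a level scaled for transcript length and library total), limma called 2148 genes higher and 419 lower, so that 83.7% of the calls were higher, against 51.0% on CPM. These shares differ in gene set and test as well as in scale, since 12640 genes were tested on TPM and 18151 on CPM. The median gene stood at 0.17 on the TPM scale and at 0.04 on CPM, over the same 11682 genes, so a change is read here against a shift of that size, and genes that fell by little are the least certain. The lists were smaller in their higher calls on the TPM scale as well, such as 13 of 21 for collagen processing, 8 of 13 for G1 and S phase, 13 of 28 for ribosome biogenesis, 11 of 16 for cholesterol synthesis and 7 of 11 for one-carbon and serine synthesis. With all libraries on CPM, each list below is to be read against 23.2% called higher and 22.3% called lower among all genes. List counts without EC Day 0 replicates 1 and 2 are to be read against 3126 higher and 2478 lower of 18766 genes tested. Those on the TPM scale are to be read against 2148 higher and 419 lower of 12640.

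**Figure D1:**
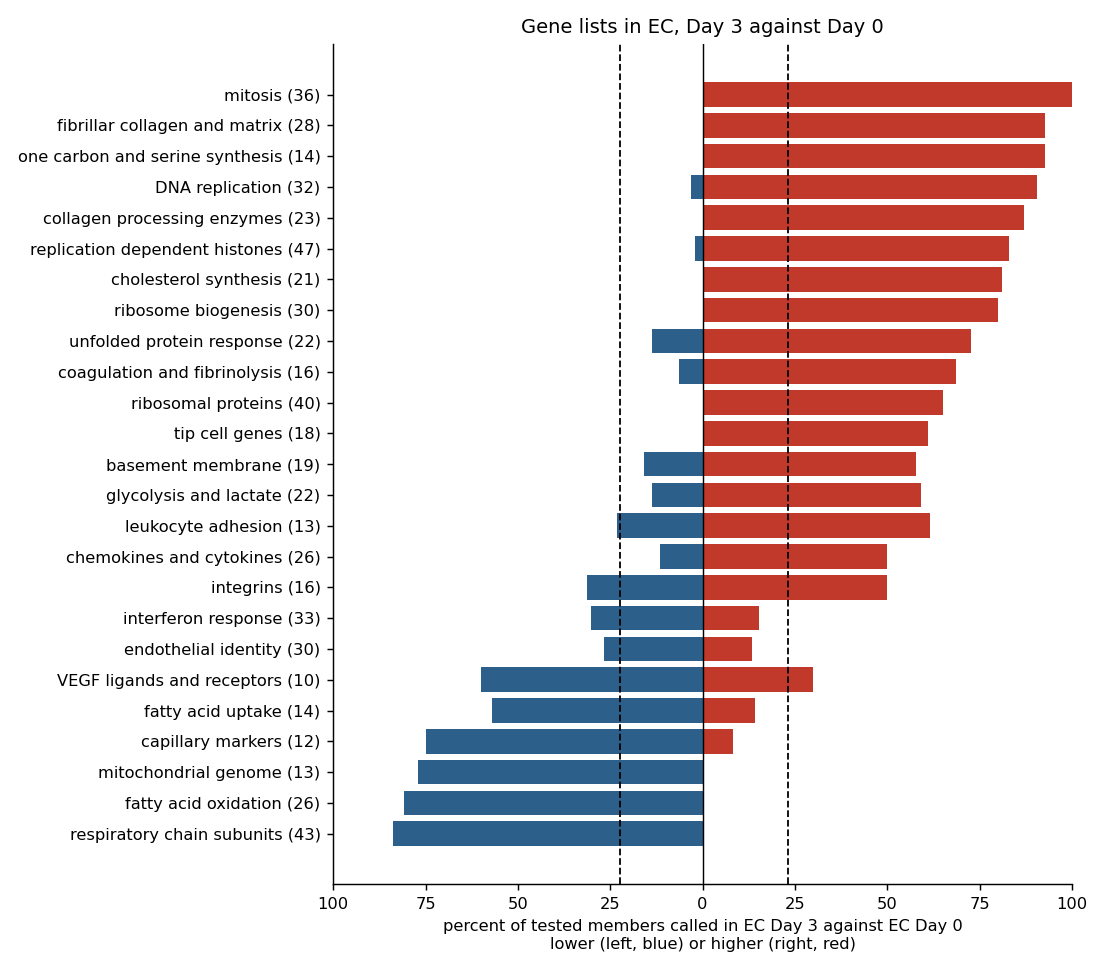
Share of the tested members of each gene list (number of tested members in parentheses) called higher (red, to the right) or lower (blue, to the left) in EC Day 3 than in EC Day 0, in percent. The dashed lines mark the share of all 18151 genes, 23.2% higher and 22.3% lower: mitosis, matrix and replication genes lie far to the right, and mitochondrial and capillary genes to the left.

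Genes of cell division were higher in EC Day 3. All 36 listed genes of mitosis passed the filter and were called higher, also without EC Day 0 replicates 1 and 2. In none did the groups overlap, against 6042 genes without overlap among the 8252 called. The median log2 fold change was 2.84, and 2.71 without the 2 replicates. Ccnb1 (cyclin B1, the partner of Cdk1 at entry into mitosis) had 32.1, 30.7, 26.9 and 30.8 CPM in the EC Day 3 libraries, against 1.94, 2.44, 3.81 and 2.11 CPM in the EC Day 0 libraries. Every EC Day 3 library lay above 26 CPM and every EC Day 0 library below 4 CPM, a log2 fold change of 3.54 ± 0.28 (adjusted p = 6.22e-09). Cdk1, the kinase that drives mitosis, had 42.0, 42.3, 35.4 and 41.9 CPM in the EC Day 3 libraries, against 3.33, 2.31, 5.76 and 2.88 CPM in the EC Day 0 libraries (log2 fold change 3.50 ± 0.36). Bub1, a kinase of the spindle checkpoint, had 25.4, 23.4, 22.7 and 22.4 CPM in EC Day 3 and 1.59, 1.03, 3.21 and 1.11 CPM in EC Day 0, and replicate 3 was the highest EC Day 0 library for Ccnb1, Cdk1 and Bub1 alike. Aurkb (Aurora B, chromosome segregation) averaged 13.2 ± 1.60 CPM in EC Day 3 and 1.19 ± 0.159 CPM in EC Day 0 (SD, n = 4 each). Cep55, needed to cut the bridge between daughter cells, averaged 25.2 ± 2.46 CPM in EC Day 3 and 2.07 ± 0.953 CPM in EC Day 0 (SD, n = 4 each). Mki67, the usual marker of cycling cells, had 347, 315, 302 and 292 CPM in EC Day 3 and 38.7, 29.5, 54.0 and 31.1 CPM in EC Day 0, a log2 fold change of 3.04 ± 0.40. In bulk RNA a larger share of dividing cells and more of these transcripts per cell cannot be told apart.

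DNA replication moved the same way. Of 32 listed genes, 29 were higher and 1, Pola2 (a subunit of the primase complex), was lower at -0.40 ± 0.12. The median log2 fold change was 1.43. Rrm2, the subunit of ribonucleotide reductase that limits the supply of deoxynucleotides, had 36.7, 34.7, 31.4 and 32.6 CPM in EC Day 3 and 4.82, 3.09, 5.44 and 3.88 CPM in EC Day 0 (log2 fold change 2.97 ± 0.29). Mcm5, a subunit of the replicative helicase, had 32.8, 29.3, 32.8 and 28.3 CPM in EC Day 3 and 7.30, 4.63, 6.37 and 5.23 CPM in EC Day 0 (log2 fold change 2.39 ± 0.29). Pcna, the sliding clamp, changed less, by 0.94 ± 0.11, but its range of 115 to 135 CPM in EC Day 3 lay apart from that of 56.0 to 70.8 CPM in EC Day 0. Among replication-dependent histones, 47 of 53 passed the filter and 39 of these were higher and 1 lower, with Hist1h3c at 18.9 ± 3.38 CPM in EC Day 3 and 1.499 ± 0.594 CPM in EC Day 0 (SD, n = 4 each). Histone genes are near-identical copies, and single members are uncertain because reads can be split among them.

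The upstream regulators differed among themselves. Myc, a growth-promoting transcription factor, had 28.4, 27.3, 26.2 and 24.97 CPM in EC Day 3 and 4.27, 2.14, 2.47 and 2.81 CPM in EC Day 0, a log2 fold change of 3.20 ± 0.24, while Mycn, its relative, was lower at -1.86 ± 0.36. Ccne1 (cyclin E1, entry into S phase) was higher at 3.99 ± 0.41 with 4.93 ± 0.760 CPM in EC Day 3 and 0.314 ± 0.213 CPM in EC Day 0 (SD, n = 4 each), and E2f1, a transcription factor for S phase genes, was higher at 1.89 ± 0.24. Ccnd1 (cyclin D1) spread over 139 to 372 CPM within EC Day 0 alone and was not called (0.26 ± 0.30). Ccnd2 was lower at -0.69 ± 0.11. Over the 19 genes of G1 and S phase, 14 were higher and 2 lower. Of 7 inhibitors of cyclin-dependent kinases, Cdkn1c (p57) had 20.5, 41.7, 29.2 and 34.3 CPM in EC Day 3 and 132, 114, 129 and 94.3 CPM in EC Day 0 and was lower by a log2 fold change of -1.90 ± 0.20. Cdkn1b (p27) was lower at -0.41 ± 0.09, and Cdkn2a, Cdkn2b and Cdkn2c, inhibitors of the kinases of G1, were higher at 2.22 ± 0.59, 1.66 ± 0.42 and 1.38 ± 0.14. Cdkn1a (p21) was not called, with 134 ± 24.4 CPM in EC Day 3 and 153 ± 43.2 CPM in EC Day 0 (SD, n = 4 each).

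**Figure D2:**
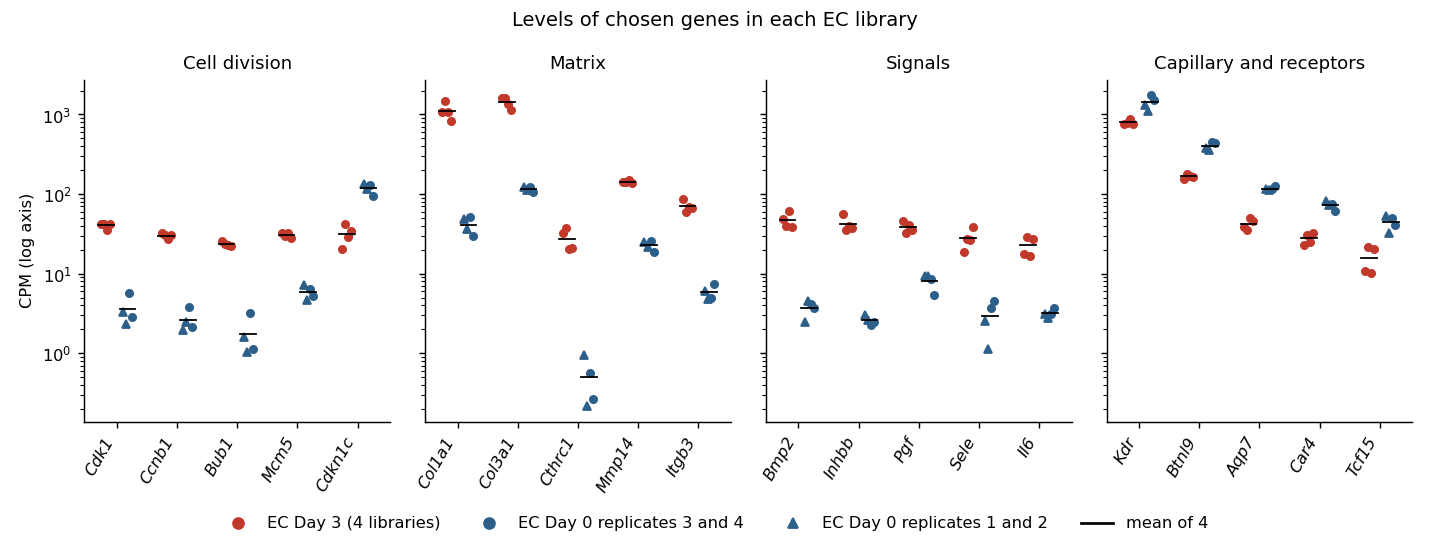
CPM (log axis) of genes from 4 themes in each of the 4 EC Day 3 (red, left) and 4 EC Day 0 (blue, right) libraries. Black lines mark the mean of the 4 libraries, and triangles mark EC Day 0 replicates 1 and 2, which carry reads of the opposite strand. The groups are apart for each gene shown, with the division, matrix and signal genes higher in EC Day 3 except Cdkn1c, and the genes of the last panel lower.

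Because the division genes moved together, their promoters are shown with 3 motifs known to bind cell cycle regulators. The motifs were the CCAAT box (CCAAT, bound by NF-Y), the CHR element (TTTGAA, bound by the DREAM complex and MuvB with B-MYB) and the E2F site (TTTCGCGC, TTTGGCGC or TTTCCCGC), each sought on both strands in the 250 bases before the start of a gene. Sequences are RefSeq promoters of GRCm38.p6, given 5′ to 3′ in the direction of the gene as the 150 bases before its start, with motif matches in capitals. Ccnb1 (chr13:100786487-100786636, minus strand), Ccnb2 (cyclin B2, chr9:70421555-70421704, minus strand), Cdk1 (chr10:69352913-69353062, minus strand) and Mcm5 (chr8:75109359-75109508, plus strand) stand for division, and Idi1 (chr13:8885456-8885605, plus strand), an isomerase of the isoprenoid pathway, for the cholesterol genes described further on.
Ccnb1: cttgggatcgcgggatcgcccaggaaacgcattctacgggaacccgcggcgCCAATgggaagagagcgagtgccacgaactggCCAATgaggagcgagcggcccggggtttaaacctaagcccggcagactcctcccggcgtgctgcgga
Ccnb2: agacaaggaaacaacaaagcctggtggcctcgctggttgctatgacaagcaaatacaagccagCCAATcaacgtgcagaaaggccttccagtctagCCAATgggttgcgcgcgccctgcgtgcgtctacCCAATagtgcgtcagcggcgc
Cdk1: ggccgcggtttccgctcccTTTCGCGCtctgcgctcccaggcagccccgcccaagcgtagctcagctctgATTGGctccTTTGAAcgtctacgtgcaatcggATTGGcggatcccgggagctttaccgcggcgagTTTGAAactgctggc
Mcm5: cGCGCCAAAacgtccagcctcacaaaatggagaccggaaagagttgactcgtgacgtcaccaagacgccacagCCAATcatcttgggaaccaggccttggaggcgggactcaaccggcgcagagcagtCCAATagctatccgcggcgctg
Idi1: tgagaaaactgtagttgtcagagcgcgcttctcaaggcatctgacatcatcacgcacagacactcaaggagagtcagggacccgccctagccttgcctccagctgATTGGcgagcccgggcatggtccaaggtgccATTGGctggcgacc
A CCAAT box lay in 24 of the 30 mitosis genes that had a sequence (80%), in 16 of 26 DNA replication genes (61.5%) and in all 15 cholesterol genes with a sequence, against 10133 of 27025 genes overall (37.5%). The CHR element lay in 11 of 30 mitosis genes (36.7%), in 5 of 17 matrix genes (29.4%) and in 4 of 26 DNA replication genes (15.4%), against 18.3% of all genes. An E2F site lay in 8 of 26 DNA replication genes (30.8%) and in 1 of 30 mitosis genes (3.33%), against 480 of all genes (1.78%). In the matrix genes the CCAAT box lay in 6 of 17 (35.3%), and in the respiratory chain genes in 12 of 31 (38.7%). A match in these windows is a description of the letters and not a test of binding. The sequences of Ccnb1 and Ccnb2 show 2 and 3 CCAAT boxes and no TTTGAA on either strand in the stretch printed. Other forms of the CHR element were not sought.

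Matrix genes rose together. Of 28 genes of fibrillar collagen and its partners, 26 were higher and none was lower (25 higher without EC Day 0 replicates 1 and 2), and the median log2 fold change was 2.33. Col1a1, a chain of type I collagen, had 1088, 1478, 1073 and 819.6 CPM in the EC Day 3 libraries, against 48.1, 36.3, 51.4 and 29.4 CPM in the EC Day 0 libraries. Col3a1, the chain of type III collagen, had 1590, 1626, 1353 and 1127 CPM in the EC Day 3 libraries, against 124, 113, 122 and 106 CPM in the EC Day 0 libraries. The lowest EC Day 3 library of either gene thus held more than 8 times the CPM of the highest EC Day 0 library, with log2 fold changes of 4.75 ± 0.37 for Col1a1 and 3.61 ± 0.30 for Col3a1. Cthrc1, a secreted protein of injured arteries and fibroblasts, had 32.3, 37.0, 20.1 and 21.00 CPM in EC Day 3 and 0.943, 0.214, 0.568 and 0.269 CPM in EC Day 0 (log2 fold change 5.82 ± 0.51). Spp1 (osteopontin) had 32.5, 37.0, 16.1 and 24.4 CPM in EC Day 3 and 0.546, 1.42, 0.406 and 0 CPM in EC Day 0 (log2 fold change 5.55 ± 0.80). Tnc (tenascin C, a matrix protein of healing tissue) had 394, 266, 275 and 258 CPM in EC Day 3 and 4.27, 4.16, 4.42 and 3.88 CPM in EC Day 0. Postn (periostin) averaged 352 ± 96.9 CPM in EC Day 3 and 46.6 ± 7.37 CPM in EC Day 0 (SD, n = 4 each). Fn1 (fibronectin) averaged 816 ± 110.4 CPM in EC Day 3 and 157 ± 3.56 CPM in EC Day 0 (SD, n = 4 each), with almost no spread among the EC Day 0 libraries.

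The enzymes that finish collagen followed. Of 23 genes of collagen processing, 20 were higher and none lower, with a median of 1.28. Serpinh1 (the collagen chaperone HSP47) had 497, 465, 400.2 and 399 CPM in EC Day 3 and 187, 164, 190.5 and 180.0 CPM in EC Day 0, a log2 fold change of 1.29 ± 0.15. Loxl2, which cross-links collagen, averaged 175 ± 29.4 CPM in EC Day 3 and 51.7 ± 14.0 CPM in EC Day 0 (SD, n = 4 each). P4ha1, a prolyl hydroxylase, was not called, with 85.2 ± 12.4 CPM in EC Day 3 and 87.5 ± 7.01 CPM in EC Day 0 (SD, n = 4 each), whereas its relative P4ha3 was higher at 4.32 ± 0.40 from a low level. The basement membrane, which endothelial cells lay down themselves, was higher in 11 of 19 tested genes and lower in 3. Lamb1 (laminin beta 1) averaged 382 ± 48.8 CPM in EC Day 3 and 162 ± 30.7 CPM in EC Day 0 (SD, n = 4 each), Nid1 (nidogen) was higher at 0.94 ± 0.12, Col4a1 (type IV collagen) at 0.76 ± 0.16 and Lama4 (the laminin alpha chain of endothelium) at 0.73 ± 0.14. Lamb2 and Lama3 were lower at -0.45 ± 0.11 and -0.48 ± 0.13.

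Marker transcripts of fibroblasts moved with the matrix genes. Of 16 fibroblast markers, 9 were higher and none lower, and their sum was 1679 to 2349 CPM in EC Day 3 and 1031 to 1344 CPM in EC Day 0, a ratio of 1.76 between the means. None of the 16 was without reads over the EC Day 3 and EC Day 0 libraries together. Pdgfra, a receptor that defines cardiac fibroblasts, had 86.9, 69.0, 60.02 and 59.4 CPM in EC Day 3 and 23.4, 20.8, 32.3 and 23.8 CPM in EC Day 0, while Tcf21, a transcription factor of the same cells, had 4.84, 4.89, 4.31 and 3.92 CPM in EC Day 3 and 5.46, 4.25, 4.67 and 2.42 CPM in EC Day 0 and was not called (0.10 ± 0.26). Relative to the FB isolates of the same day, the marker sum in EC was 14.7% at Day 3 and 3.15% at Day 0. On the scale of all 4 cell types it was 1238 CPM in EC Day 3 and 693 CPM in EC Day 0, against 8423 and 22010 CPM in FB of Day 3 and Day 0, so most of the change in that share came from the FB isolates, whose Day 3 mean includes the shallow replicates 2 and 3. As a share of FB, Col1a1 was 7.05% at Day 3 and 2.69% at Day 0, Postn was 27.2% and 17.3%, and Tnc was 26.4% and 26.2%. The part of fibroblast RNA in the matrix result was not tested.

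Proteases and adhesion receptors that act on this matrix changed as well. Of 18 tested genes of matrix proteases and their inhibitors, 12 were higher and 2 lower (8 and 2 without EC Day 0 replicates 1 and 2). Mmp14, a membrane-bound collagenase of sprouting cells, had 142, 142, 148 and 136 CPM in EC Day 3 and 24.9, 21.5, 25.6 and 18.9 CPM in EC Day 0 and was higher by a log2 fold change of 2.64 ± 0.20 (adjusted p = 3.58e-09). Adamts4, which cleaves proteoglycans, averaged 97.8 ± 14.3 CPM in EC Day 3 and 6.52 ± 2.33 CPM in EC Day 0 (SD, n = 4 each). Timp1, an inhibitor of metalloproteases, had 82.3, 105, 46.8 and 75.5 CPM in EC Day 3 and 5.26, 0.729, 1.09 and 0.730 CPM in EC Day 0. Mmp15, another membrane-bound protease, was lower at -0.61 ± 0.12. Of 16 integrin subunits, 8 were higher and 5 lower. Itgb3, the beta subunit of the vitronectin receptor of angiogenic vessels, had 87.0, 59.1, 68.0 and 66.0 CPM in EC Day 3 and 6.06, 4.80, 4.95 and 7.38 CPM in EC Day 0 (log2 fold change 3.59 ± 0.22). Its partner Itgav was higher at 1.43 ± 0.13, and Itga5, a receptor chain for fibronectin, at 2.07 ± 0.25. Itga1, a chain of a collagen receptor, was lower, with 427 ± 36.6 CPM in EC Day 3 and 726 ± 64.7 CPM in EC Day 0 (SD, n = 4 each).

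Factors linked to a mesenchymal shape did not move as one. Of 14 genes, 8 were higher and 2 lower (6 and none without EC Day 0 replicates 1 and 2). Vim (vimentin) had 1775, 1779, 1822 and 1576 CPM in EC Day 3 and 489, 430.4, 510.5 and 359.5 CPM in EC Day 0, a log2 fold change of 1.96 ± 0.15. Snai1, a repressor of cadherin genes, had 16.1, 22.6, 16.4 and 15.6 CPM in EC Day 3 and 3.77, 3.77, 2.52 and 1.69 CPM in EC Day 0 (log2 fold change 2.59 ± 0.25). Its relative Snai2 was not called at -0.24 ± 0.13, nor was Acta2 (smooth muscle actin) with 113 ± 14.0 CPM in EC Day 3 and 128 ± 12.5 CPM in EC Day 0 (SD, n = 4 each).

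Growth factors of the TGF-beta family split by member. Of 21 genes of the TGF-beta and BMP pathway, 8 were higher and 6 lower, with 2 lower calls left without EC Day 0 replicates 1 and 2 and 3 without EC Day 3 replicate 1, and none on the TPM scale. Among the ligands, Bmp2 had 48.6, 39.6, 60.8 and 38.9 CPM in the EC Day 3 libraries, against 2.43, 4.59, 4.14 and 3.73 CPM in the EC Day 0 libraries. Inhbb, the beta B subunit of activin and inhibin, had 56.9, 35.7, 40.0 and 37.5 CPM in the EC Day 3 libraries, against 2.98, 2.62, 2.27 and 2.46 CPM in the EC Day 0 libraries. The groups were more than 8 times apart at their nearest libraries for both genes, with log2 fold changes of 3.65 ± 0.27 for Bmp2 and 4.04 ± 0.30 for Inhbb (adjusted p = 2.76e-09 and 3.11e-09). Inhba, the beta A subunit, was higher at 1.97 ± 0.30 and Bmp4 at 1.80 ± 0.16, while Tgfb1 was not called (0.30 ± 0.14). Of the receptors, Tgfbr2 was higher at 1.30 ± 0.10 and Tgfbr1 at 0.55 ± 0.11. Eng (endoglin, a coreceptor of endothelium) averaged 277 ± 58.2 CPM in EC Day 3 and 269 ± 38.4 CPM in EC Day 0 (SD, n = 4 each) and was not called. The feedback inhibitor Smad6 was lower at -0.47 ± 0.13, and the call was lost without EC Day 0 replicates 1 and 2.

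Among VEGF ligands and receptors, the receptors of blood endothelium were lower. Kdr (VEGFR2, the main signalling receptor for VEGF-A) had 767, 785, 873 and 762 CPM in the EC Day 3 libraries, against 1299, 1121, 1742 and 1536 CPM in the EC Day 0 libraries. Flt1 (VEGFR1) had 709, 737, 743 and 807 CPM in EC Day 3 and 965, 1040, 1123 and 1043 CPM in EC Day 0. Nrp1 (neuropilin 1, a coreceptor) had 329, 373, 386 and 369 CPM in EC Day 3 and 584, 559.5, 739.8 and 662 CPM in EC Day 0. None of these overlapped between the groups, with log2 fold changes of -0.84 ± 0.13 for Kdr, -0.48 ± 0.11 for Flt1 and -0.81 ± 0.09 for Nrp1. Flt4 (VEGFR3, the receptor of lymphatic vessels and tip cells) was higher at 0.73 ± 0.13. Of the ligands, Pgf (placental growth factor, which binds Flt1) had 46.1, 32.5, 40.5 and 35.3 CPM in EC Day 3 and 9.29, 9.39, 8.64 and 5.34 CPM in EC Day 0 (log2 fold change 2.24 ± 0.23) and Vegfd was higher at 1.96 ± 0.28, whereas Vegfc was lower at -0.73 ± 0.13. Vegfa and Vegfb were lower at -0.58 ± 0.15 and -0.86 ± 0.23, calls that were lost without EC Day 0 replicates 1 and 2. In all, 3 of 10 genes were higher and 6 lower, with 4 lower without EC Day 0 replicates 1 and 2, and 1 higher and 1 lower of 9 tested on the TPM scale.

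Genes of the tip cell, the leading cell of a sprout, were higher in 11 of 18 and lower in none, with a median of 0.75. Apln (apelin, a peptide of sprouting endothelium) had 179, 92.4, 114 and 112 CPM in EC Day 3 and 35.6, 28.0, 51.5 and 37.1 CPM in EC Day 0, a log2 fold change of 1.71 ± 0.37, and EC Day 3 replicate 1 lay above the rest of its group. Angpt2 (angiopoietin 2, which destabilizes vessels) averaged 36.5 ± 4.82 CPM in EC Day 3 and 14.3 ± 1.17 CPM in EC Day 0 (SD, n = 4 each). Esm1 (endocan, a tip cell proteoglycan) averaged 16.7 ± 1.99 CPM in EC Day 3 and 6.55 ± 1.90 CPM in EC Day 0 (SD, n = 4 each). Igfbp3, which binds insulin-like growth factors, had 347, 222, 288 and 245 CPM in EC Day 3 and 80.6, 69.4, 70.0 and 83.5 CPM in EC Day 0 (log2 fold change 1.86 ± 0.17), and Igf1 itself averaged 64.9 ± 5.54 CPM in EC Day 3 and 22.01 ± 4.22 CPM in EC Day 0 (SD, n = 4 each). Dll4, the Notch ligand of tip cells, was not called, with 87.3 ± 13.9 CPM in EC Day 3 and 93.7 ± 16.6 CPM in EC Day 0 (SD, n = 4 each). Of 15 Notch pathway genes, 2 were higher and 6 lower (2 lower on the TPM scale), among them the targets Hey2 (-0.96 ± 0.17) and Heyl (-0.70 ± 0.14) and the ligand Jag2 (-0.72 ± 0.09). The 2 higher calls, Hes1 and Notch4, were lost without EC Day 0 replicates 1 and 2. Hes1 was also lost without EC Day 0 replicate 4 or EC Day 3 replicate 2 or 4 (adjusted p = 0.0519 to 0.106), and Notch4 without EC Day 0 replicate 1 or 2 or EC Day 3 replicate 1 or 3 (adjusted p = 0.0646 to 0.155).

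Markers of resting capillaries were lower. Of 12 genes, 9 were lower and 1, Ly6a (Sca-1), was higher at 0.57 ± 0.10. Without EC Day 0 replicates 1 and 2 there were 6 lower calls, and the median was -0.80 with all libraries and -0.66 without the 2. On the TPM scale 4 of 12 were lower, with a median of -0.35. Btnl9, a butyrophilin-like surface protein of capillary cells, had 153, 181, 167 and 166 CPM in the EC Day 3 libraries, against 374, 359, 446 and 442 CPM in the EC Day 0 libraries. Aqp7, a channel for glycerol, had 38.3, 35.1, 49.98 and 46.1 CPM in EC Day 3 and 115, 111, 116 and 125 CPM in EC Day 0. Car4 (carbonic anhydrase 4 of the capillary surface) had 22.7, 30.9, 25.04 and 31.97 CPM in EC Day 3 and 82.5, 72.2, 75.2 and 61.0 CPM in EC Day 0. The groups lay apart for each, with log2 fold changes of -1.28 ± 0.12, -1.46 ± 0.17 and -1.39 ± 0.25. The genes for handling fatty acids were lower in 8 of 14 and higher in 2 (5 and 2 without the 2 replicates, and 1 and 1 of 12 tested on the TPM scale). Cd36, the fatty acid transporter, had 1750, 1914, 1847 and 2294 CPM in EC Day 3 and 3310, 3032, 3652 and 3589 CPM in EC Day 0, a log2 fold change of -0.80 ± 0.18 that was -0.21 on the TPM scale. Tcf15 and Meox2, which together activate fatty acid uptake genes in heart endothelium, were lower at -1.49 ± 0.26 and -0.51 ± 0.14. Lpl, the lipase that frees fatty acids from lipoproteins, was lower at -0.81 ± 0.24, a call that was lost without EC Day 0 replicates 1 and 2. Angptl4, an inhibitor of that lipase, was higher at 1.99 ± 0.27.

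Genes of endothelial identity had a median change near 0 with all libraries. Of 30, 4 were higher and 8 lower, both below or near the share of all genes (2 and 2 on the TPM scale). Without EC Day 0 replicates 1 and 2, 2 were higher and 9 lower, a setting in which 2478 of 18766 genes tested were lower. The median was -0.03 on CPM, -0.13 without the 2 replicates and 0.12 on the TPM scale. Erg and Sox17, transcription factors of endothelium, were not called at 0.19 ± 0.08 and 0.20 ± 0.15, nor was Emcn (endomucin) with 185 ± 9.61 CPM in EC Day 3 and 187 ± 18.7 CPM in EC Day 0 (SD, n = 4 each). Pecam1 and Cdh5 were higher at 0.34 ± 0.10 and 0.34 ± 0.12, and neither was called without EC Day 0 replicates 1 and 2. Pecam1 also lost its call without EC Day 0 replicate 2 alone (adjusted p = 0.0505), and Cdh5 without EC Day 0 replicate 1 or 2 or EC Day 3 replicate 1 or 3 (adjusted p = 0.0599 to 0.104). Without EC Day 0 replicate 2 alone, 2 genes of the list were higher. Mcam, an adhesion molecule that mural cells also carry, was higher at 1.28 ± 0.18. Ushbp1 was lowest of the list at -1.08 ± 0.13. Plvap, which forms the diaphragms of fenestrated and injured endothelium, had 109.6, 134, 114 and 116 CPM in EC Day 3 and 17.97, 20.8, 15.8 and 15.9 CPM in EC Day 0, a log2 fold change of 2.75 ± 0.20. Klf2, a transcription factor switched on by flow, was not called (-0.16 ± 0.18), while Klf4 had 119.5, 198, 179.8 and 198 CPM in EC Day 3 and 310.0, 366, 324 and 251 CPM in EC Day 0 and was lower at -0.85 ± 0.16. Of 7 lymphatic markers, 6 were higher, with Pdpn (podoplanin) at 25.1 ± 5.91 CPM in EC Day 3 and 7.03 ± 2.75 CPM in EC Day 0 and Lyve1 at 39.9 ± 10.4 CPM in EC Day 3 and 19.4 ± 1.93 CPM in EC Day 0 (SD, n = 4 each). Prox1, the transcription factor that defines lymphatic identity, was the exception at -0.04 ± 0.17 and was not called.

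Selectins and other surface molecules that hold leukocytes were higher. Sele (E-selectin, made by activated endothelium) had 18.9, 27.2, 26.1 and 39.0 CPM in the EC Day 3 libraries, against 2.53, 1.11, 3.73 and 4.50 CPM in the EC Day 0 libraries. Selp (P-selectin) averaged 54.1 ± 13.1 CPM in EC Day 3 and 3.19 ± 3.49 CPM in EC Day 0 (SD, n = 4 each). Vcam1 averaged 101.1 ± 15.1 CPM in EC Day 3 and 47.3 ± 11.5 CPM in EC Day 0 (SD, n = 4 each). Ackr1, a chemokine-binding receptor of venules, was higher at 2.73 ± 0.47. Sele was higher by 3.21 ± 0.37 and Selp by 4.12 ± 0.52 on the log2 scale. Icam1 was higher at 0.91 ± 0.26 with all libraries and was not called without EC Day 0 replicates 1 and 2, and Icam2, present on resting endothelium, was not called (0.08 ± 0.16). Jam2 and Jam3, of the cell junctions, were lower at -0.70 ± 0.11 and -0.65 ± 0.14. In all, 8 of 13 tested adhesion genes were higher and 3 lower, and on the TPM scale 5 and none of 11.

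Of 26 tested chemokines, cytokines and their receptors, 13 were higher and 3 lower (5 lower without EC Day 0 replicate 2). Il6 had 17.9, 29.2, 16.7 and 27.4 CPM in the EC Day 3 libraries, against 3.08, 2.74, 3.12 and 3.69 CPM in the EC Day 0 libraries. Cxcl5, which draws neutrophils, had 19.04, 31.5, 15.1 and 30.7 CPM in EC Day 3 and 1.49, 1.59, 0.487 and 0.231 CPM in EC Day 0 (log2 fold change 4.70 ± 0.79). Cxcl1, of the same kind, averaged 83.8 ± 31.6 CPM in EC Day 3 and 20.1 ± 5.38 CPM in EC Day 0 (SD, n = 4 each). Ccl2, which draws monocytes, had 32.1, 50.6, 23.5 and 47.2 CPM in EC Day 3 and 4.57, 2.49, 4.91 and 3.73 CPM in EC Day 0 (log2 fold change 3.29 ± 0.43). EC Day 3 replicates 2 and 4 were the higher pair for all 4 of these genes. Lif, a cytokine of the Il6 family, was higher at 3.21 ± 0.42 and Il33, released from damaged cells, at 1.90 ± 0.34. Csf1, a growth factor of macrophages, was not called (-0.19 ± 0.17).

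The lists of leukocyte markers differed in their level relative to the HC isolates. The 4 HC markers of the study (Itgax, Itgal, Cd53 and Ptprc) summed to 3.14 to 4.38 CPM in EC Day 3 and 2.79 to 3.58 CPM in EC Day 0, 0.247% of the HC isolates at Day 3 and 0.313% at Day 0, and Itgax was at 0 in 3 EC Day 0 libraries. None of the 3 HC markers that passed the filter was called. As a share of the HC isolates, macrophage markers in EC were 0.798% at Day 3 and 0.770% at Day 0, and neutrophil markers 9.65% and 26.3%. T and NK cell markers were 3.17% and 5.57%, B cell markers 2.02% and 1.99%, and monocyte markers 20.2% and 49.2%. Macrophage markers summed to 80.0 to 113 CPM in EC Day 3 and 76.2 to 81.5 CPM in EC Day 0 (4 higher and 2 lower of 13 tested), neutrophil markers to 47.0 to 113 CPM in EC Day 3 and 37.7 to 77.9 CPM in EC Day 0 (1 higher of 5 tested) and T and NK cell markers to 2.42 to 3.18 CPM in EC Day 3 and 3.50 to 5.06 CPM in EC Day 0 (2 lower of 5 tested). Monocyte markers summed to 1141 to 1500 CPM in EC Day 3 and 211 to 224 CPM in EC Day 0 (5 higher of 8 tested), and that sum was carried by Fn1, Thbs1 and Vcan, which other cells also make, while Ccr2 and Ly6c2 were not called at 0.34 ± 0.45 and -0.40 ± 0.27. As a share of the FB isolates, Ccl2 in EC was 8.8% at Day 3 and 0.957% at Day 0, and Cxcl5 was 13.7% and 5.49%. The parts of leukocyte and fibroblast RNA in the results on cytokines were not tested.

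Genes of the clotting balance changed in 12 of 16 cases, 11 higher and 1 lower. The plasminogen activator Plau (urokinase) had 63.7, 43.4, 54.2 and 56.8 CPM in EC Day 3 and 7.25, 4.12, 6.65 and 6.42 CPM in EC Day 0 (log2 fold change 3.16 ± 0.25) and its receptor Plaur averaged 26.8 ± 4.77 CPM in EC Day 3 and 6.95 ± 1.38 CPM in EC Day 0 (SD, n = 4 each). Plat (tissue plasminogen activator) was higher at 0.57 ± 0.10. Thbd (thrombomodulin, which turns thrombin to anticoagulant use) was the lower one, with 158, 155, 180.5 and 172 CPM in EC Day 3 and 221, 213, 268 and 248 CPM in EC Day 0 (log2 fold change -0.52 ± 0.10), while its partner Procr (endothelial protein C receptor) was higher at 1.83 ± 0.21. Vwf, F3 and Tfpi were not called.

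Complement and acute phase genes were higher in 9 of 24 and lower in none. Serpina3n, an inhibitor of leukocyte proteases, had 58.3, 47.0, 38.0 and 45.0 CPM in EC Day 3 and 4.27, 1.54, 2.27 and 1.54 CPM in EC Day 0 (log2 fold change 4.31 ± 0.42). Lcn2 (lipocalin 2, which binds iron carriers of bacteria) averaged 4.74 ± 0.985 CPM in EC Day 3 and 0.582 ± 0.329 CPM in EC Day 0 (SD, n = 4 each). Lrg1, a modifier of endothelial TGF-beta signalling, was higher at 3.33 ± 0.22. C3, the central complement protein, averaged 227 ± 18.8 CPM in EC Day 3 and 180.3 ± 41.7 CPM in EC Day 0 (SD, n = 4 each) and was not called. The interferon response was split on CPM: of 33 genes, 5 were higher and 10 lower, but on the TPM scale 2 were higher and none lower of 31 tested. Without EC Day 0 replicate 2 there were 3 higher calls, and without EC Day 0 replicate 3 or EC Day 3 replicate 1 there were 6 and 5 lower calls. Cxcl10 averaged 18.1 ± 4.29 CPM in EC Day 3 and 2.96 ± 0.850 CPM in EC Day 0 (SD, n = 4 each), a log2 fold change of 2.61 ± 0.21. Isg15 was higher at 0.86 ± 0.20. Irf7, a transcription factor of the response, was not called (0.12 ± 0.13). Cxcl9, a chemokine induced by interferon gamma, was lower at -0.71 ± 0.17.

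Genes of glycolysis and of mitochondria went opposite ways. Of 22 tested glycolysis and lactate genes, 13 were higher and 3 lower. Slc16a3, an exporter of lactate, had 18.7, 12.3, 11.7 and 15.8 CPM in EC Day 3 and 3.03, 3.52, 1.54 and 1.54 CPM in EC Day 0 (log2 fold change 2.61 ± 0.27). Eno1 (enolase) was higher at 2.01 ± 0.31 and Pkm (pyruvate kinase) at 1.23 ± 0.12. Slc2a1, the glucose transporter of endothelium, had 31.4, 24.9, 23.9 and 25.9 CPM in EC Day 3 and 10.1, 8.70, 7.14 and 8.77 CPM in EC Day 0 (log2 fold change 1.61 ± 0.17). Ldha averaged 188 ± 17.4 CPM in EC Day 3 and 115 ± 6.60 CPM in EC Day 0 and Ldhb averaged 48.6 ± 3.59 CPM in EC Day 3 and 132 ± 29.4 CPM in EC Day 0 (SD, n = 4 each), so the 2 lactate dehydrogenase subunits differed in sign, 0.71 ± 0.09 for Ldha and -1.44 ± 0.23 for Ldhb. Pfkm, the muscle form of phosphofructokinase, was lower, with 37.0 ± 4.90 CPM in EC Day 3 and 74.0 ± 12.8 CPM in EC Day 0 (SD, n = 4 each). Of 26 genes of fatty acid oxidation, 21 were lower and none higher (17 lower without EC Day 0 replicates 1 and 2, and 4 of 24 tested on the TPM scale). Acadm, which begins the oxidation of medium chains, had 86.5, 74.7, 68.5 and 73.0 CPM in EC Day 3 and 200.5, 218, 152 and 157 CPM in EC Day 0 (log2 fold change -1.26 ± 0.19). Of 43 subunits of the respiratory chain, 36 were lower, but 14 without EC Day 0 replicates 1 and 2 and 6 on the TPM scale, with medians of -0.67, -0.45 and -0.34. Cox7a1, the muscle form of a cytochrome oxidase subunit, had 26.2, 47.5, 21.1 and 30.8 CPM in EC Day 3 and 116, 135, 78.2 and 74.2 CPM in EC Day 0 (log2 fold change -1.68 ± 0.32). Of the 13 protein genes of the mitochondrial genome, 10 were lower (6 without EC Day 0 replicates 1 and 2, and 5 on the TPM scale), with mt-Co1 at 26100 ± 1273 CPM in EC Day 3 and 44780 ± 8213 CPM in EC Day 0 (SD, n = 4 each).

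Transcripts of cardiomyocytes moved with the mitochondrial genes. Of 16 abundant CM transcripts, 15 were lower, and their sum was 6957 to 9258 CPM in EC Day 3 and 12650 to 20130 CPM in EC Day 0, a ratio of 0.470 between the means. None of the 16 was without reads over the EC Day 3 and EC Day 0 libraries together. The sum in EC was 7.19% of that in the CM isolates at Day 3 and 9.77% at Day 0. Acadm in EC was 5.31% of CM at Day 3 and 9.78% at Day 0, Cox7a1 was 2.09% at Day 3 and 5.21% at Day 0, and mt-Co1 was 23.2% at Day 3 and 17.9% at Day 0. Some of the 15 lowest genes under the naming rule are known from muscle, chosen here after their values were seen: Myoz2 (a protein of the Z disc) averaged 37.7 ± 6.40 CPM in EC Day 3 and 118 ± 25.01 CPM in EC Day 0, Rpl3l (a ribosomal protein of heart and skeletal muscle) averaged 4.94 ± 0.870 CPM in EC Day 3 and 18.4 ± 4.95 CPM in EC Day 0, and Fndc5 (the precursor of irisin) averaged 21.3 ± 5.22 CPM in EC Day 3 and 70.1 ± 18.5 CPM in EC Day 0 (SD, n = 4 each). The part of cardiomyocyte RNA in these results was not tested.

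Genes of several biosynthetic pathways were higher. Of 14 genes of one-carbon and serine synthesis, 13 were higher and none lower. Mthfd2, the mitochondrial folate enzyme of dividing cells, had 11.6, 11.3, 9.04 and 10.6 CPM in EC Day 3 and 1.34, 1.37, 2.72 and 1.92 CPM in EC Day 0 (log2 fold change 2.52 ± 0.25). Psat1, of serine synthesis, had 17.7, 15.6, 14.4 and 17.2 CPM in EC Day 3 and 2.28, 2.79, 2.47 and 2.38 CPM in EC Day 0 (log2 fold change 2.71 ± 0.28). Of 16 nucleotide synthesis genes, 10 were higher and 1 lower, with Ctps (CTP synthase) at 48.3 ± 4.47 CPM in EC Day 3 and 17.2 ± 3.08 CPM in EC Day 0 and Impdh2 (of guanine nucleotides) at 40.0 ± 0.421 CPM in EC Day 3 and 19.4 ± 2.20 CPM in EC Day 0 (SD, n = 4 each). Of 21 tested cholesterol synthesis genes, 17 were higher and none lower, with a median of 0.71. Idi1, whose promoter is printed above, had 30.9, 33.9, 29.8 and 30.2 CPM in EC Day 3 and 10.5, 9.56, 12.1 and 12.8 CPM in EC Day 0 (log2 fold change 1.47 ± 0.16). Srebf2, the transcription factor of the pathway, was not called (0.31 ± 0.13).

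The machinery of protein synthesis shifted by smaller steps. Of 30 ribosome biogenesis genes, 24 were higher and none lower, among them Npm1 (nucleophosmin) with 270.2, 417, 242 and 320.1 CPM in EC Day 3 and 145, 125, 136 and 112 CPM in EC Day 0 and Ncl (nucleolin) at 0.67 ± 0.09. Of 40 ribosomal proteins, 26 were higher and none lower, with a median of 0.53, and their many pseudogenes make single values uncertain. Without EC Day 3 replicate 2 there were 17 higher calls, and with the 8 libraries fitted alone 15. Of 22 genes of the unfolded protein response, 16 were higher and 3 lower. Pdia4, a disulfide isomerase of the endoplasmic reticulum, had 103, 84.2, 84.0 and 84.2 CPM in EC Day 3 and 31.0, 31.5, 39.4 and 41.4 CPM in EC Day 0 (log2 fold change 1.31 ± 0.13). Hspa5 (BiP, the main chaperone there) was higher at 0.52 ± 0.14. Atf4 and Trib3, of the stress branch of the response, were not called at 0.09 ± 0.13 and -0.05 ± 0.13. Chac1, a target of that branch, was lower at -0.75 ± 0.20.

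**Figure D3:**
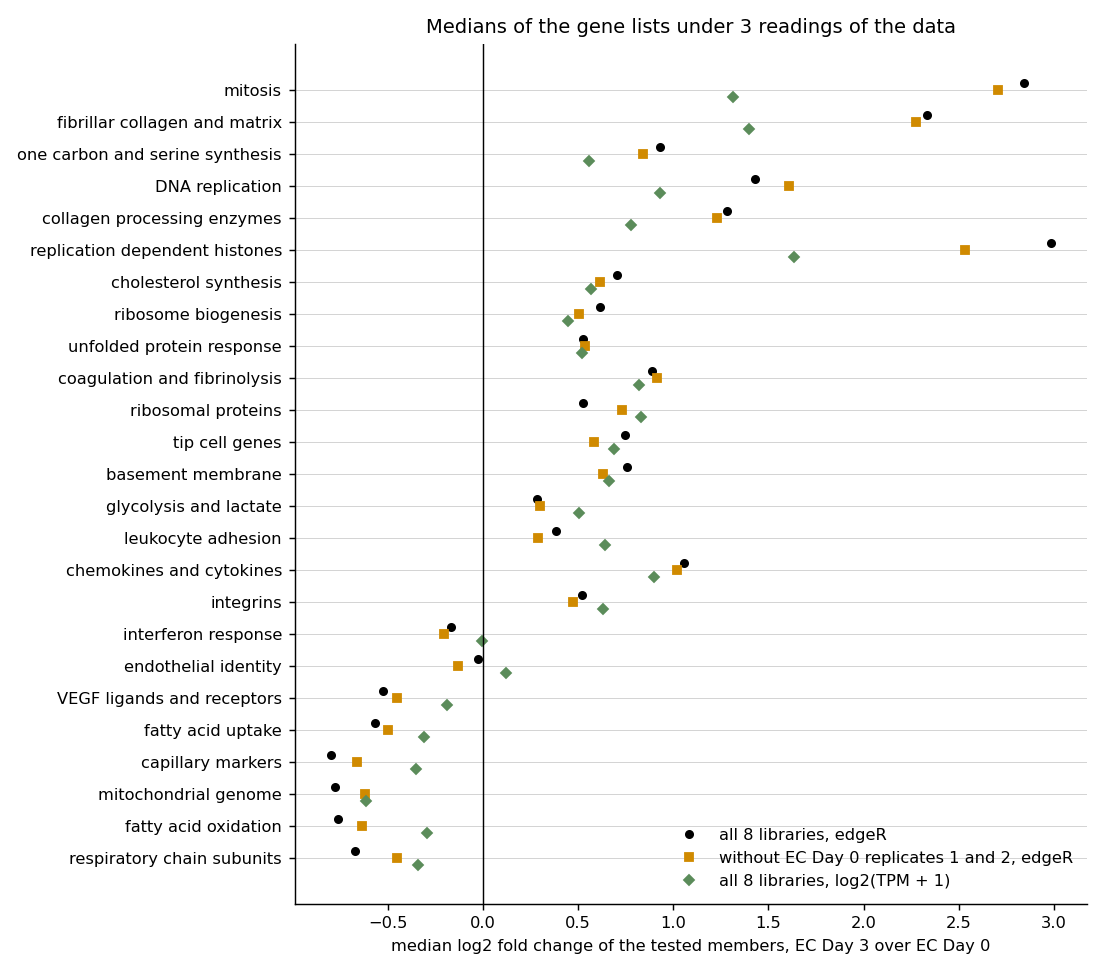
Median log2 fold change of the tested members of each list, EC Day 3 over EC Day 0, with all 8 libraries (black), without EC Day 0 replicates 1 and 2 (orange) and on the log2(TPM + 1) scale (green). Histone, mitosis and matrix genes have the highest medians with all 8 libraries (2.99, 2.84 and 2.33), histones lie below mitosis without the 2 replicates (2.53 and 2.71), the TPM scale gives 1.63, 1.32 and 1.40, and endothelial identity lies on both sides of 0.

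The small GTPases Rac1 and Cdc42, which steer actin at the front of migrating cells and whose course in EC the study describes, had small but separate groups. Rac1 had 327, 314, 298 and 323 CPM in EC Day 3 and 242, 236, 266 and 269 CPM in EC Day 0, a log2 fold change of 0.32 ± 0.07 (adjusted p = 5.95e-04). Cdc42 had 412, 376, 363 and 386 CPM in EC Day 3 and 241, 237, 282 and 284 CPM in EC Day 0, a log2 fold change of 0.56 ± 0.08 (adjusted p = 4.10e-06). Both share their position with a gene on the other strand, and without EC Day 0 replicates 1 and 2 they stood at 0.22 and 0.42. Of 30 effectors and actin genes, 17 were higher and 5 lower. Actg1 (gamma actin) had 1243, 1024, 1061 and 1232 CPM in EC Day 3 and 414, 389, 518 and 510.2 CPM in EC Day 0 (log2 fold change 1.32 ± 0.14). Pak1, a kinase that Rac1 and Cdc42 activate, was higher at 2.94 ± 0.46. Actb (beta actin) was not called, with 3656 ± 547 CPM in EC Day 3 and 3130 ± 719.6 CPM in EC Day 0 (SD, n = 4 each). Myl9, a myosin light chain of contractile cells, was lower at -0.81 ± 0.15.

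Stress genes did not form one pattern. Hspa1b, a chaperone induced by heat and by cell isolation, had 34.6, 73.2, 71.8 and 82.5 CPM in EC Day 3 and 309.5, 324, 189 and 199 CPM in EC Day 0 and was lower at -1.96 ± 0.38, and its near-identical neighbour Hspa1a was lower at -1.86 ± 0.38, so reads may be split between them. Of 24 immediate early and heat shock genes, which include both, 5 were higher and 9 lower, and on the TPM scale 2 and 2 of 23. Fosb was lower at -0.61 ± 0.14 and Fosl1 and Egr2 were higher at 2.38 ± 0.47 and 1.90 ± 0.34, while Jun and Atf3 were not called at -0.28 ± 0.17 and 0.22 ± 0.15. Of 19 tested hypoxia genes, 5 were higher (3 without EC Day 0 replicate 4) and 6 lower, and on the TPM scale 3 and none of 17. Hif1a, the oxygen-regulated transcription factor, had 418, 362, 347 and 418 CPM in EC Day 3 and 89.5, 89.1, 105 and 113 CPM in EC Day 0 (log2 fold change 1.96 ± 0.11), whereas Epas1 (HIF-2 alpha, abundant in endothelium) was lower at -0.48 ± 0.12. Egln1, which marks both for degradation, was lower at -0.90 ± 0.10. H19, an imprinted noncoding RNA of growing tissue, had 145, 181, 186 and 163 CPM in EC Day 3 and 66.9, 64.7, 54.7 and 52.5 CPM in EC Day 0 (log2 fold change 1.499 ± 0.21).

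Genes of mural cells, the pericytes and smooth muscle cells around vessels, were lower. Of 12 markers, 10 were lower and 1, Mcam, was higher. Their sum was 1600 to 1913 CPM in EC Day 3 and 3326 to 3913 CPM in EC Day 0, a ratio of 0.483 between the means. No marker was without reads over these libraries together. Rgs5, a pericyte marker, had 692, 770.0, 864 and 794 CPM in the EC Day 3 libraries, against 2034, 2207, 2538 and 2135 CPM in the EC Day 0 libraries. Vtn (vitronectin, made by pericytes in several tissues) had 7.43, 8.47, 10.1 and 8.02 CPM in EC Day 3 and 35.8, 33.3, 42.9 and 24.5 CPM in EC Day 0. Kcnj8, a potassium channel of pericytes, averaged 16.7 ± 1.34 CPM in EC Day 3 and 47.6 ± 8.95 CPM in EC Day 0 (SD, n = 4 each). Rgs4, a relative of Rgs5, had 25.5, 27.0, 30.2 and 26.5 CPM in EC Day 3 and 86.0, 100.8, 98.9 and 74.8 CPM in EC Day 0 (log2 fold change -1.72 ± 0.16). The largest decreases under the naming rule also included Akap5, an anchor for protein kinase A, with 8.02, 11.1, 7.69 and 9.26 CPM in EC Day 3 and 35.4, 30.8, 50.4 and 42.6 CPM in EC Day 0 (log2 fold change -2.14 ± 0.25), and Fam102a with 13.2 ± 0.930 CPM in EC Day 3 and 48.1 ± 11.5 CPM in EC Day 0 (SD, n = 4 each). Pde4c, Adprhl1, Papln, Upk3b and Ces1d were also among the 15 lowest, at -1.95, -1.81, -1.70, -1.69 and -1.67. Upk3b marks the mesothelium. The part of mural cell RNA in the result was not tested.

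**Figure D4:**
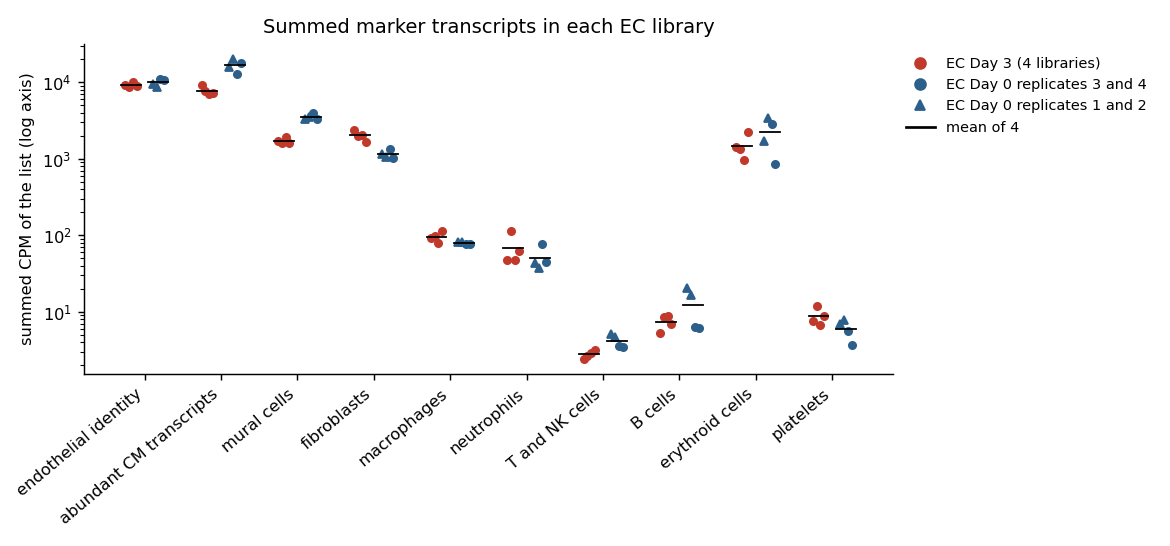
Summed CPM (log axis) of marker lists in each EC Day 3 (red, left) and EC Day 0 (blue, right) library, with means as black lines and EC Day 0 replicates 1 and 2 as triangles. Endothelial identity overlaps between the groups, CM and mural markers are lower and fibroblast markers higher in EC Day 3, and lymphocyte and platelet markers stay under 21 CPM in all libraries.

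The largest increase under the naming rule was that of Sh2d5, an adaptor protein known from brain, with 31.9, 31.7, 28.9 and 28.4 CPM in the EC Day 3 libraries, against 0.993, 0.214, 0.162 and 0.423 CPM in the EC Day 0 libraries. Its log2 fold change was 6.11 ± 0.39 (adjusted p = 7.09e-10) and stayed at 6.63 without EC Day 0 replicates 1 and 2, but was 1.48 on the log2(TPM + 1) scale, which compresses low levels. Fam167b, of unknown function, averaged 19.7 ± 4.07 CPM in EC Day 3 and 1.49 ± 0.487 CPM in EC Day 0 (SD, n = 4 each). Among the 15 highest were also Cthrc1, Spp1, Col1a1, Col1a2, Col3a1, Cxcl5, Serpina3n, Inhbb, Bmp2, Bub1, Cep55 and Hist1h3c, from the lists above.

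The change in EC was set against the mean change of CM, FB and HC from Day 0 to Day 3, in one fit of 32 libraries. Of 19977 genes tested, 1355 (6.78%) changed to a higher value in EC than in the other isolates and 1031 (5.16%) to a lower one. With RLE scaling the split turned round, to 1012 higher and 1335 lower, and with DESeq2 it was 1396 and 1971. Without EC Day 0 replicates 1 and 2 the counts were 395 and 269. FB Day 3 replicates 2 and 3 were shallow, with 2664338 and 3508819 reads, of which ribosomal RNA took 35.6 and 35.2%, against 29057708 and 18528788 reads and 8.79 and 20.2% in replicates 1 and 4. The study left out FB replicates of that day as outliers, and without replicates 2 and 3 the counts were 1678 and 1214. Libraries were prepared per cell type, so cell type and preparation cannot be told apart in levels.

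Division genes were also higher in the other isolates. Of 36 mitosis genes, 0 had a higher and 1 a lower change in EC than in the others, with medians of 2.86 in EC, 3.46 in CM, 4.19 in FB and 1.26 in HC. Mki67 averaged 193 ± 17.5 CPM in EC Day 3 and 23.2 ± 6.52 CPM in EC Day 0 on the scale of all 4 cell types, against 58.1 ± 47.5 and 6.70 ± 1.31 CPM in FB, 171 ± 18.3 and 71.1 ± 8.90 CPM in HC, and 19.2 ± 7.56 and 1.62 ± 0.572 CPM in CM (SD, n = 4 each, Day 3 before Day 0). Fibrillar matrix had a higher change in EC in 14 of 28 genes and a lower one in 2, tip cell genes in 12 of 18 and 0, basement membrane in 12 of 19 and 0, and endothelial identity in 15 of 30 and 1. The fibroblast markers did likewise in 12 of 16 and 0. Matrix medians were 2.35 in EC, 2.43 in CM, 0.82 in FB and 0.13 in HC. Tip cell medians were 0.77, 0.93, 0.05 and -1.37 in the same order. Basement membrane medians were 0.78, 0.51, -0.60 and -1.86, and fibroblast marker medians 0.75, 1.44, -1.23 and -1.42. The CM median thus lay above that of EC for the matrix, tip cell and fibroblast lists. For endothelial identity the median was -0.01 in EC, 0.30 in CM, -0.28 in FB and -2.54 in HC. The interferon response had a lower change in EC in 12 of 33 genes and a higher one in 0, with medians of -0.15 in EC, 1.08 in CM, -0.12 in FB and 0.68 in HC. Respiratory chain subunits were lower in 10 of 43.

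Of the 79 genes that passed every filter of the naming rule, the growth factor Bmp2 had the highest difference from the other isolates, 3.60 ± 0.34 on the log2 scale (adjusted p = 2.54e-08), and changed by 3.67 ± 0.29 in EC, 2.34 ± 0.38 in CM, -1.59 ± 0.27 in FB and -0.53 ± 0.26 in HC. Inhbb differed by 3.48 ± 0.25 (adjusted p = 2.66e-10) and changed by 4.06 ± 0.22 in EC, 2.84 ± 0.29 in CM, -0.47 ± 0.19 in FB and -0.63 ± 0.23 in HC. Both were higher in EC and in CM and at or below 0 in FB and HC. In CM Day 0 the level was only 0.330 to 1.14 CPM for Bmp2 and 0.330 to 0.566 CPM for Inhbb. The size of their fold in CM, and of the difference from the other isolates, is therefore uncertain. Myc differed by 2.54 ± 0.26, with changes of 3.22 ± 0.23 in EC, 1.71 ± 0.26 in CM, 0.08 ± 0.21 in FB and 0.25 ± 0.21 in HC. Sele differed by 2.22 ± 0.47 and Sh2d5 by 3.18 ± 0.89. The CM isolates of Day 0 held 0.113 to 0.330 CPM of Sele and 0, 0, 0.126 and 0 CPM of Sh2d5, so that the fold in CM has no firm size for either gene, and the difference from the other isolates shares this limit. At Day 3 the CM isolates held 1.59 CPM of Sele, against 17.0 CPM in EC Day 3. Zfp521, a zinc finger protein, differed by 2.23 ± 0.26, with 1.09 ± 0.22 in EC, -0.28 ± 0.23 in CM, -0.98 ± 0.22 in FB and -2.15 ± 0.24 in HC. In the other direction, Fam102a differed by -1.55 ± 0.20 and was called lower in EC alone among the 4 isolates, with changes of -1.84 ± 0.18 in EC, -0.50 ± 0.19 in CM, -0.06 ± 0.18 in FB and -0.31 ± 0.17 in HC. Pdpn differed by -1.48 ± 0.27, since it rose by 4.14 in CM and 4.99 in HC, by 1.86 in EC and by 0.89 in FB. The level of Pdpn in CM Day 0 was 0.410 to 1.47 CPM, so the size of its fold in CM is uncertain. Ripk3, a kinase of necroptosis, was higher in all 4 isolates and by least in EC (1.48 ± 0.23 in EC, 3.18 ± 0.35 in CM, 2.95 ± 0.25 in FB and 2.39 ± 0.23 in HC). Its level in CM Day 0 was 0.0819 to 0.566 CPM, so the size of its fold in CM is uncertain. Upk3b, Igfbp6 and Serpinb1a differed by -2.89 ± 0.44, -2.06 ± 0.33 and -1.52 ± 0.36.

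**Figure D5:**
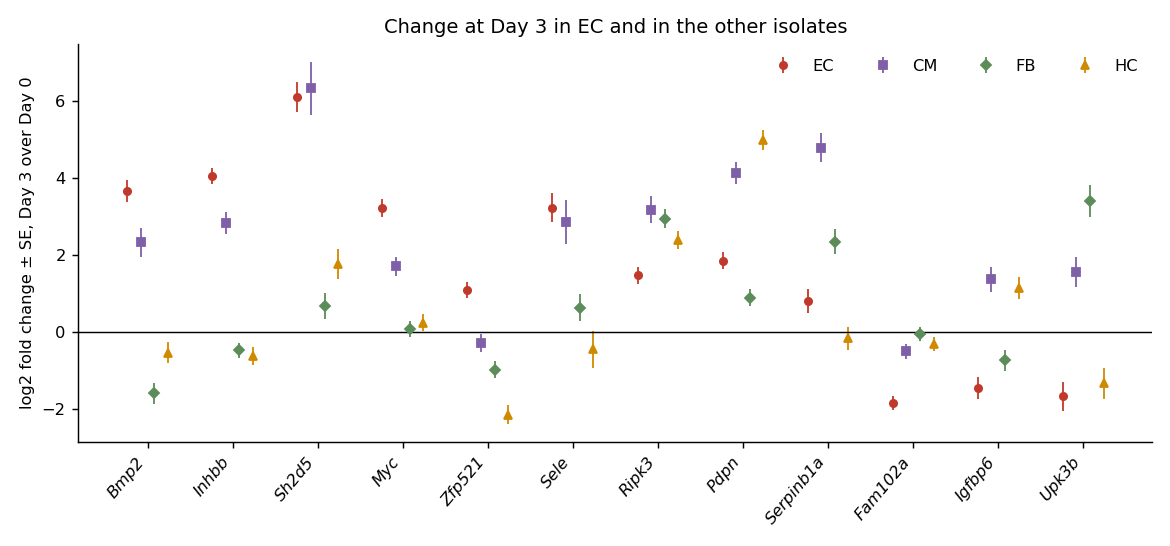
Log2 fold change at Day 3 over Day 0 (± SE) of the 6 genes with the highest and the 6 with the lowest difference between EC and the other isolates, in EC (red), CM (purple), FB (green) and HC (orange). EC lies above FB and HC for Bmp2, Inhbb, Sh2d5, Myc, Zfp521 and Sele. The value of Sh2d5 in CM has no firm size, since 3 of the 4 CM Day 0 libraries held no read.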

How the data were processed

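Total RNA was sequenced from EC, CM, FB and HC at 6 time points, and the EC libraries of Day 3 and Day 0 were compared. As the labels and the methods of the study state, reads were adapter-trimmed (Trim Galore), mapped to mm10 (STAR 2.28, submitters' processing notes) and quantified per transcript with Salmon, whose version and strand setting are not given in the sources used here. The deposited values are estimated counts of reads and TPM, per transcript for EC and CM and almost wholly per gene for FB and HC. Entries were summed to genes of GENCODE for GRCm38 here, and in the EC libraries compared, 1057 of 137734 entries without a gene, at most 0.306% of the reads, were left out.

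Estimated counts were rounded and tested with edgeR 4.0.16 (quasi-likelihood, TMM scaling, filterByExpr) in R 4.3.3 over all 24 EC libraries, which share the estimate of spread, with Benjamini-Hochberg adjustment over all genes and a threshold of 0.05. The filter kept a gene that was present in any EC group, so a gene can have passed through the group where it is high. The difference between EC and the other isolates was fitted on 32 libraries, without 106 genes whose length differs between these kinds of file. Alternatives were DESeq2 1.42.0, RLE scaling, no filter, limma 3.58.1 on log2(TPM + 1) and log2(TPM + 0.1), a replicate block, the 8 libraries alone, and fits without ribosomal RNA genes, without genes opposite another gene, and without single libraries. The edgeR step was tested on simulated data. The spread is that between pools, and total estimated reads of 21405295 to 28642346 set the precision of low genes.

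Named genes were, first, the 15 highest and the 15 lowest log2 fold changes among called genes averaging 10 CPM or more in the 8 libraries, with groups that do not overlap, a symbol that is not a clone, model or small RNA name, no annotated gene on the other strand, and the same call without EC Day 0 replicates 1 and 2, without each single library and on log2(TPM + 1). Further names were list members, those with the largest changes first and others where a role needed them, Rac1 and Cdc42, the study's cell type markers, and the 6 genes in each direction whose change differed most between EC and the other isolates. Some genes that meet this rule and 1 list are not reported here. The members and the 66 lists were chosen with earlier results of these data known. Each library is a pool of RNA from several mice. Mice of Day 3 and Day 0 were different, so replicate numbers do not pair the days, whereas pools of one day came from the same mice in each cell type.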

Additional observations from a re-analysis of the deposited data

Results flagged for a closer look

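One library stood apart from the other 3 of its group in 21 of 458 values examined. Whether this number exceeds what chance gives was not tested, and some of the differences were small, as for Cdkn1b and Ccnb2. In EC Day 0, replicate 1 had 8.39 CPM of Selp (others 0.858 to 1.91), 5.26 of Timp1 (0.729 to 1.09), 5.81 of Bmp4 (4.50 to 4.67) and 8.64 of Hey2 (11.5 to 11.6). Replicate 2 had 85.1 CPM of Cdkn1b (87.7 to 88.0), 117.5 of Mcam (134.5 to 137.2) and 0.0858 of Itgax (0 in the others). Replicate 3 had 3.49 CPM of Cep55 (1.42 to 1.74) and 72.7 of Loxl2 (44.1 to 45.9), and replicate 4 had 4.96 of Ripk3 (6.21 to 6.31) and 93.3 of Klf2 (114 to 117). In EC Day 3, replicate 1 had 394 CPM of Tnc (258 to 275), 103 of Pdia4 (84.0 to 84.2), 65.0 of Klf2 (108 to 112), 18.2 of Cxcl9 (23.7 to 24.5), 26.2 of Ccnb2 (25.3 to 25.5) and 1500 CPM summed over the monocyte markers (1141 to 1154). Replicate 2 had 31.9 CPM of Myl9 (22.9 to 23.5) and 22.6 of Snai1 (15.6 to 16.4), replicate 3 had 35.4 of Cdk1 (41.9 to 42.3), and replicate 4 had 6.22 of Lcn2 (4.17 to 4.30).

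The change at Day 3 differed between EC and the mean of CM, FB and HC, by a test of the difference itself, for Bmp2 (3.60 on the log2 scale), Inhbb (3.48), Sh2d5 (3.18), Myc (2.54), Zfp521 (2.23) and Sele (2.22), and in the other direction for Upk3b (-2.89), Igfbp6 (-2.06), Fam102a (-1.55), Serpinb1a (-1.52), Pdpn (-1.48) and Ripk3 (-1.37). For Sh2d5, 3 of the 4 CM Day 0 libraries held no read, so its value has no firm size.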

How the results depend on the processing

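The counts of genes higher and lower in EC Day 3 than in EC Day 0, 4209 and 4043, were 4377 and 4368 with DESeq2, 4237 and 3989 with RLE scaling, 3975 and 3469 without the filter, 4158 and 4105 without ribosomal RNA genes, and 3298 and 3216 with the 8 libraries alone. Without EC Day 0 replicates 1 and 2 they were 3126 and 2478, with 1 called gene of opposite sign. Without genes opposite another gene (7629 of those tested) they were 2548 and 2124, by construction from fewer genes. With limma they were 2148 and 419 on log2(TPM + 1), 1928 and 345 without its filter, and 2519 and 532 on log2(TPM + 0.1), and the cause was not tested. Without one replicate each they ranged over 3645 to 4225 higher and 3407 to 4551 lower. The replicate block gave 4114 and 3858, with correlations of the same-numbered deviations of -0.12, 0.04, -0.01 and -0.10, so the libraries of the 2 days share only a number, and no EC Day 3 library correlated best with the EC Day 0 library of its own number. The counts of a higher and a lower change in EC than in the other isolates, 1355 and 1031, were 1396 and 1971 with DESeq2, 1377 and 824 with the replicate block, 1012 and 1335 with RLE scaling, 395 and 269 without EC Day 0 replicates 1 and 2, and 815 to 1558 and 648 to 1254 without one EC replicate each. Of 205 named genes none reversed under any setting run, 9 calls were lost without EC Day 0 replicates 1 and 2, and 33 of 190 tested were on the other side of the threshold on log2(TPM + 1). Genes near or under 1 CPM in EC Day 0, such as Cthrc1 and Spp1, have folds set by few reads.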
